A study of Rattus norvegicus with 6 samples.

Results

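C-type lectin receptors were taken as every row of the deposited gene table whose symbol starts with Clec and a digit or with Cd209, which gave 39 of 23802 rows under 36 symbols. They were compared between 3 control and 3 monocrotaline (MCT) samples of whole lung from male Sprague-Dawley rats, all labelled wild type. MCT is a plant alkaloid that injures the lung vessels, and the rats given 1 dose of 60 mg/kg serve as a model of pulmonary arterial hypertension. Lungs of both groups were collected after 4 weeks, and the control rats received saline. The injection route is inconsistent in the labels, which name both the intraperitoneal and the subcutaneous route for MCT and the subcutaneous route for saline. Nothing says whether a sample is 1 animal or a pool, so p-values measure only how these samples spread, and that spread may be technical. The rats weighed 200 to 250 g.

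The C-type lectin fold is a protein domain that, in its classic form, binds sugars in the presence of calcium. Membrane receptors with this fold let macrophages, dendritic cells and other leukocytes recognise the glycans of microbes and of damaged or altered self. Some of them activate the cell through the kinase Syk and the adaptor Card9, others carry an inhibitory tail motif that recruits phosphatases, and others take up glycoproteins. The same nomenclature also covers endothelial proteins, secreted proteins, ligands of natural killer (NK) cell receptors and 1 intracellular protein, so the name alone does not make a gene an immune receptor.

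The 39 rows ranged from very abundant transcripts to genes with no count in any sample. FPKM, the authors' count per length and depth, is the scale used to set one gene beside another. Clec2g had the highest level, at 1045 ± 222 FPKM in control and 571 ± 44.3 FPKM in MCT lungs (SD, n = 3). It was followed by Clec3b, Clec14a, Clec7a and Clec10a, with control means of 125, 184, 104 and 19.4 FPKM in that order of their mean over all samples. Clec2g took 61.6% to 67.3% of all counts of the 39 rows in control samples and 47.7% to 56.4% in MCT samples. At the other end, Clec4n, Cd209f and the Ensembl row of Cd209c had no count in any sample, where 3 counts, the limit that a count of 0 allows, correspond to 0.162 to 0.223 CPM (CPM, counts scaled to library size after TMM normalization; counting error only).

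**Figure D1:**
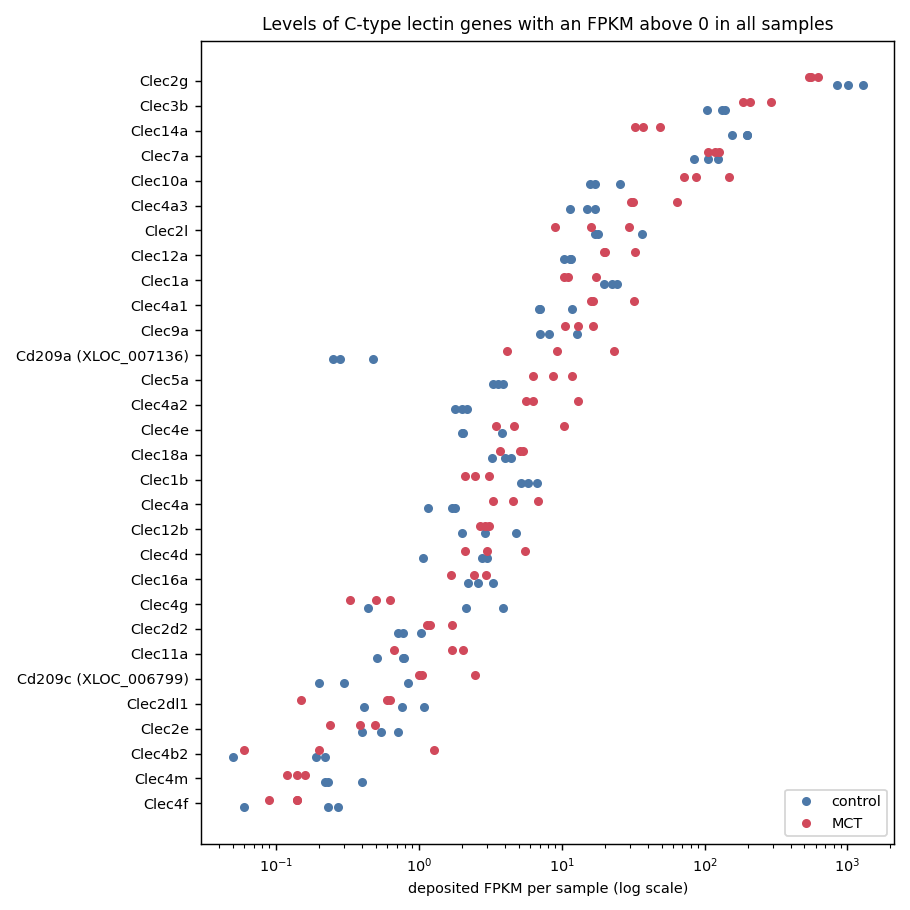
Deposited FPKM (log scale) of each C-type lectin gene with a value above 0 in all 6 samples, 1 point per sample, ordered by mean. Clec2g lies highest in both groups, and the assembled locus XLOC_007136, named Cd209a, has its 3 control points far to the left of its MCT points.

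Of the 39 rows 27 had enough counts to be tested, 12 did not, and 14 of the 27 differed between the groups (edgeR's quasi-likelihood test over 15250 genes, Benjamini-Hochberg, adjusted p under 0.05). There were 10 higher in MCT lung, where 8.01% of all tested genes were higher, and 4 lower, where 5.11% of all tested genes were lower. These 10 and 4 are 37.0% and 14.8% of the 27. Leaving out control sample 3 left 5 higher and 1 lower. The count lower was also 2 without control sample 1 or 2 and 1 without MCT sample 1 or 3, while the other counts higher stayed between 7 and 11. The median log2 fold change of the 27 was 0.69, against -0.01 over all tested genes. A row that passes the count filter only through the group where it is high had to differ, so these shares are a description of the 27 and not of all 39. This holds in full for 2 rows, both assembled loci named Cd209a, in which no control sample reached the filter's count. It holds in part for Cd209c (XLOC_006799), Clec2dl1 and Clec2e, none of them called. In these, some but not all samples of the lower group missed that count. Of the 25 rows other than the 2 Cd209a loci 8 were higher and 4 lower, with a median log2 fold change of 0.64. The groups did not overlap in 12 rows with MCT above and 4 with MCT below, where 18.4% and 17.0% of all tested genes lay so. The 12 include the 2 Cd209a loci, for which the filter fixed this outcome in advance. The 4 are the rows called lower, and their 14.8% of the 27 lies under the 17.0% of all tested genes. A lower value in whole tissue can come from fewer cells of a type or from less RNA per cell, and the 2 cannot be told apart here.

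**Figure D2:**
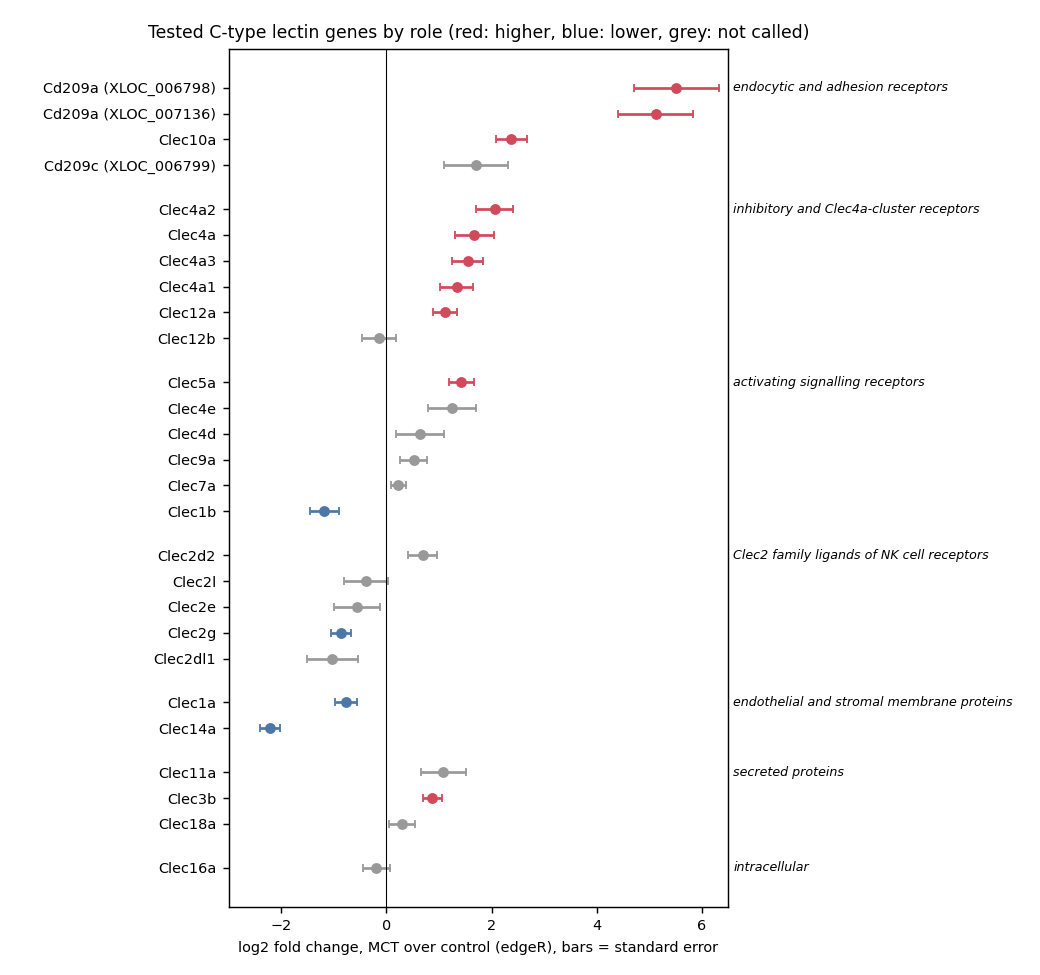
log2 fold change of MCT over control with its standard error for the 27 tested rows, grouped by role. The called rises stand among the endocytic receptors, the Clec4a cluster with Clec12a, Clec5a and Clec3b, and the called falls are Clec14a, Clec1b, Clec2g and Clec1a.

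Of 12 rows of endocytic and adhesion receptors 4 were tested and 3 were called higher. These are Clec10a and the 2 assembled Cd209a loci, which passed the filter through their MCT counts alone. Clec10a, the macrophage galactose-type lectin, which binds galactose and N-acetylgalactosamine on glycoproteins, rose 5.19-fold. Its level (ENSRNOG00000018715) was 37.5, 23.2 and 23.5 CPM in control samples 1 to 3 and 209, 103 and 125 CPM in MCT samples 1 to 3. All MCT samples lay above all controls, and MCT sample 1 stood well above the other 2. The log2 fold change was 2.38 (edgeR, SE 0.30, adjusted p = 0.0027), and it stayed between 2.03 and 2.65 and called in all 15 alternatives. Measured against the summed CPM of 6 general leukocyte genes, Clec10a stood at 1.87 ± 0.731% in control and 7.5 ± 2.31% in MCT lungs (SD, n = 3), so it stood higher against those genes in every MCT sample than in any control. Those genes cover leukocytes in general, and Clec10a was not set against macrophage genes. The 12 interstitial macrophage markers had a median log2 fold change of 1.74, from Folr2, 8.06-fold up, to Lyve1, 1.65-fold down. The part of macrophage number in the rise of Clec10a was not tested.

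The Cd209 genes encode relatives of human DC-SIGN, a receptor of dendritic cells and macrophages for mannose-rich and fucosylated glycans. The name Cd209a stands on 3 rows and the name Cd209c on 2, and reads may have been shared or split between such copies. RefSeq names 13 Cd209 genes in the rat (assembly GRCr8), all on chromosome 12. The assembled locus XLOC_007136 is called Cd209a, but its description in the table is of CD209 antigen-like protein C, so which copy it measures was not settled. It had 0.266, 0.298 and 0.485 CPM in control samples 1 to 3 and 24.2, 4.39 and 9.67 CPM in MCT samples 1 to 3. The groups were far apart, and the MCT samples spread over more than 5 times their lowest value. The log2 fold change was 5.12 (edgeR, SE 0.71, adjusted p = 0.00403), and it was 4.27 without MCT sample 1. This row too passed the filter through its MCT counts alone.

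The second assembled locus named Cd209a, XLOC_006798, had 0, 1 and 0 counts in control samples and 22, 15 and 24 in MCT samples. This is a ratio of 62.5 with a 95% exact binomial interval of 10.8 to 2510 over the pooled counts, which covers counting error only. It passed the filter through its MCT counts alone, so its adjusted p of 0.00509 (edgeR; 0.00521 with no count filter) is given as a description. The fitted log2 fold change was 5.52 and was 7.43 without control sample 2, the only control with a count. The Ensembl row of Cd209a (ENSRNOG00000040128) had a single count, in MCT sample 3. With the counts of the 3 rows added, Cd209a had 4, 5 and 9 counts in controls and 379, 89 and 163 in MCT samples. The log2 fold change was 5.18 (edgeR, SE 0.66, adjusted p = 0.00284). No control reached the filter's count in this sum either, so its adjusted p is also only a description. XLOC_007136, described as CD209 antigen-like protein C, held 357, 74 and 138 of the MCT counts. The rise under this name therefore came from assembled loci, and a reading of the Ensembl row alone would have shown almost no counts.

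Cd209c was measured on the assembled locus XLOC_006799, with 0.200, 0.298 and 0.809 CPM in controls and 2.44, 1.01 and 1.05 CPM in MCT samples. All MCT samples lay above the controls, but the difference did not pass (edgeR, log2 fold change 1.71, SE 0.61, adjusted p = 0.101). The row named Cd209, which RefSeq lists as a synonym of Cd209d, had 1 count over the controls and 27 over the MCT samples, a ratio of 27.7 with an exact binomial interval of 4.56 to 1130, and was too low to be tested. Cd209e went the other way at a similar depth, with 19 counts over the controls and 3 over the MCT samples, a ratio of 0.162 (0.0306 to 0.549). Clec4m, a relative of human L-SIGN, had 0.823 ± 0.268 CPM in control and 0.411 ± 0.068 CPM in MCT lungs (SD, n = 3) and was not tested either. Clec4g, the sinusoidal endothelial lectin LSECtin, ranged from 0.372 to 3.33 CPM among controls and from 0.271 to 0.533 CPM among MCT samples, with overlap. Clec4f, a receptor of liver macrophages, had 2 to 8 counts per control and 3 to 4 per MCT sample.

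**Figure D3:**
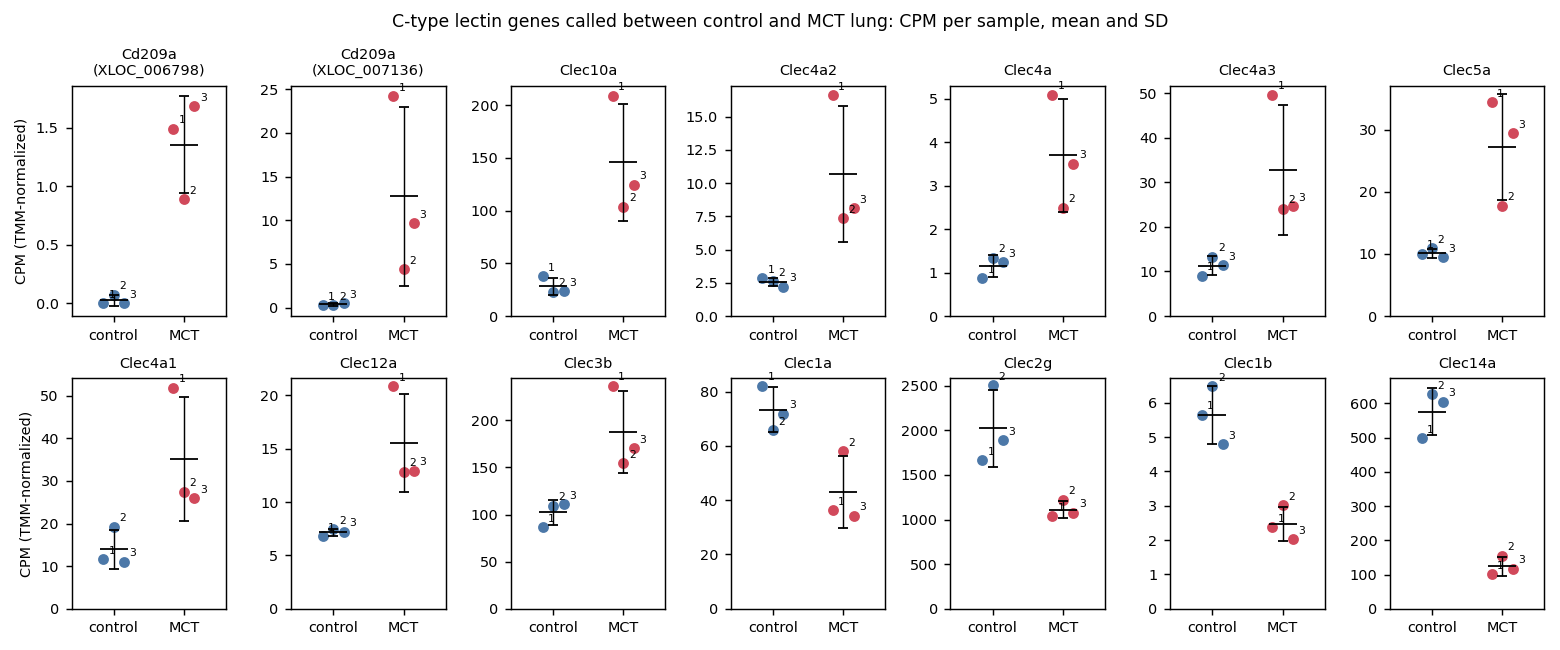
CPM of the 14 called rows per sample, with the mean and SD of each group, each panel on its own linear axis from 0. The groups do not overlap in any panel, and in 9 of the 10 rows that rose MCT sample 1 is the highest.

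The Clec4a cluster rose together. Clec4a, Clec4a1, Clec4a2 and Clec4a3 encode the DCIR family (dendritic cell immunoreceptors), whose founding member dampens signalling in dendritic cells through a tail motif that binds phosphatases. RefSeq places them next to each other on chromosome 4, in the order Clec4a1, Clec4a3, Clec4a2 and Clec4a. Their promoters are shown because these neighbours rose together. The sequences are the 250 bases before each RefSeq start (GRCr8, matched by symbol, 5′ to 3′), and capitals mark GAGGAA or its reverse complement TTCCTC, the letters of a purine-rich ETS site of the kind that the myeloid factor PU.1 can bind.
Clec4a1, chr4:157845561-157845810, plus strand: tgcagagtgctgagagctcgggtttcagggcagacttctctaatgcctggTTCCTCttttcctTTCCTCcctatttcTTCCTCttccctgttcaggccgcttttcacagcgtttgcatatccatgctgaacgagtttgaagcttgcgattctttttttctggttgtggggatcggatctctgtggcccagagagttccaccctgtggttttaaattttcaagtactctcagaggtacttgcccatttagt
Clec4a3, chr4:157886508-157886757, plus strand: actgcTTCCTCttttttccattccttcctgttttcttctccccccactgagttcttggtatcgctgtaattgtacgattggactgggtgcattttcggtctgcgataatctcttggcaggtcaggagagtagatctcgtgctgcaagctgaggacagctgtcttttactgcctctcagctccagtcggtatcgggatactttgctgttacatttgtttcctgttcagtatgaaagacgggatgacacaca
Clec4a2, chr4:157934346-157934595, plus strand: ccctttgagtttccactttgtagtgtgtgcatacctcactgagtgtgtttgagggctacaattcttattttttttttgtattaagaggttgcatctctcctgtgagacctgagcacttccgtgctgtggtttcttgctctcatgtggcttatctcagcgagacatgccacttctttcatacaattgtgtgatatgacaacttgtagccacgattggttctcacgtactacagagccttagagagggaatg
Clec4a, chr4:158100365-158100614, plus strand: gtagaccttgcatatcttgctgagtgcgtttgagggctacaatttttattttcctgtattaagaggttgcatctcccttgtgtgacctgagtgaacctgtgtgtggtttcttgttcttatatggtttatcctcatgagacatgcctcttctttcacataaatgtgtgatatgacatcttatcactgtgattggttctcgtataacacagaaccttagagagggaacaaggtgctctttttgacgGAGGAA
The motif stood 3 times in the Clec4a1 window, 1 time each in those of Clec4a3 and Clec4a, and in no place in that of Clec4a2, on either strand. It is common, found in 23.3% of the 33469 promoters searched over the same length and in 9 of the 28 that matched a symbol of the 36. A match is a description of the letters and not a measured site. The windows of Clec4a2 and Clec4a were the most alike, with 188 identical aligned bases (75.2% of the window), against 57.2% to 61.2% for the other 5 pairs. The alignment allowed gaps and no unrelated windows were aligned. Whether the other 5 pairs are more alike than unrelated promoters was therefore not tested. How the counting treated reads shared by these related genes is not stated, so the split of reads among the 4 is uncertain.

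Clec4a3 (ENSRNOG00000010018), which had the highest FPKM of the 4, had 9.05, 13.3 and 11.4 CPM in control samples 1 to 3 and 49.6, 24.1 and 24.7 CPM in MCT samples 1 to 3. The groups did not overlap, and MCT sample 1 had about 2 times the level of the other 2. It rose 2.91-fold (edgeR, log2 1.54, SE 0.30, adjusted p = 0.0144), and the call ended without control sample 3 (adjusted p = 0.0594).

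Clec4a1 (ENSRNOG00000042139) had 11.6, 19.3 and 11.1 CPM in controls and 51.9, 27.4 and 26.0 CPM in MCT samples, a rise of 2.52-fold (edgeR, adjusted p = 0.0288). Its call ended without control sample 1 (adjusted p = 0.0806), control sample 3 (adjusted p = 0.108) or MCT sample 1 (adjusted p = 0.0644), so it rested on few libraries. Clec4a2 (ENSRNOG00000030012) had the largest rise of the 4, 4.18-fold, from 2.86, 2.61 and 2.21 CPM to 16.6, 7.35 and 8.13 CPM (edgeR, log2 2.06, SE 0.35, adjusted p = 0.0093), and remained called in all 15 alternatives. Clec4a (ENSRNOG00000010045), the least abundant, had 0.865, 1.34 and 1.24 CPM in controls and 5.09, 2.49 and 3.50 CPM in MCT samples, a rise of 3.19-fold (edgeR, adjusted p = 0.0234). The call of Clec4a ended without any single library other than MCT sample 2 (adjusted p = 0.0594 to 0.0807).

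Added together, the 4 genes stood at 28.9 ± 6.65 CPM in control and 82.3 ± 35.5 CPM in MCT lungs (SD, n = 3), with 123 CPM in MCT sample 1 and 61.3 and 62.3 CPM in the other 2. Their share relative to the 6 leukocyte genes was 1.88 ± 0.34% in control and 4.23 ± 1.51% in MCT lungs (SD, n = 3). The cluster was not set against macrophage markers, whose changes are given below. Clec4b2, the next gene in the RefSeq order, had 1 to 4 counts in every sample except MCT sample 1, which had 22, and was not tested.

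Outside the Clec4a cluster, Clec12a rose and Clec12b did not pass. Clec12a, an inhibitory myeloid receptor that senses uric acid crystals, had 6.79, 7.45 and 7.23 CPM in controls and 20.9, 12.9 and 13.0 CPM in MCT samples. The controls lay close together and the groups apart, a rise of 2.17-fold (edgeR, ENSRNOG00000054860, log2 1.12, SE 0.23, adjusted p = 0.0172). The call ended without control sample 2 (adjusted p = 0.0595) or control sample 3 (adjusted p = 0.0662). Clec12b, its neighbour in the genome, had 7.03 ± 3.2 CPM in control and 6.31 ± 0.393 CPM in MCT lungs (SD, n = 3), with a log2 fold change of -0.15 (edgeR, adjusted p = 0.802) that was 0.26 without control sample 2.

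Among the activating receptors 1 of 6 tested genes rose, 1 fell and 4 did not pass. Clec5a, a myeloid receptor that signals through the adaptor DAP12 (Tyrobp), had 10.05, 10.9 and 9.44 CPM in controls and 34.4, 17.7 and 29.4 CPM in MCT samples. It rose 2.68-fold (edgeR, ENSRNOG00000026306, log2 1.42, SE 0.24, adjusted p = 0.00893), with tight controls and no overlap, and remained called in all 15 alternatives.

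Clec7a (Dectin-1), the receptor for fungal beta-glucan and by far the most abundant gene of this group, did not pass. Its values were 182, 220.2 and 228 CPM in control samples 1 to 3 and 212, 265 and 257 CPM in MCT samples 1 to 3, with overlapping groups. The log2 fold change was 0.22 (edgeR, SE 0.14, adjusted p = 0.337) and stayed between 0.13 and 0.32 in all alternatives. Against the 6 leukocyte genes Clec7a stood at 13.7 ± 0.559% in control and 12.9 ± 2.33% in MCT lungs (SD, n = 3).

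Clec4e (Mincle) and Clec4d (MCL), partner receptors for mycobacterial glycolipids that stand side by side on chromosome 4, did not pass. Clec4e had 1.93, 3.65 and 1.89 CPM in controls and 9.83, 4.50 and 3.29 CPM in MCT samples, with a log2 fold change of 1.25 (edgeR, SE 0.46, adjusted p = 0.113). It was called with DESeq2 (adjusted p = 0.0477), and its log2 fold change was 0.66 without MCT sample 1. Clec4d had 7.69 ± 3.7 CPM in control and 11.9 ± 5.83 CPM in MCT lungs (SD, n = 3), a log2 fold change of 0.64 (edgeR, adjusted p = 0.385) that was 0.19 without MCT sample 1. MCT sample 1 was the highest sample for both genes. Most neutrophil markers were also highest in that sample. The 10 marker genes summed to 606 CPM there, 76.3 and 55.9 CPM in the other MCT samples and 34.5 to 65.0 CPM in controls. Most of the 606 CPM came from S100a9 at 456 CPM and S100a8 at 84.7 CPM. Ngp was lowest there among MCT samples, at 1.15 CPM against 1.36 and 1.40 CPM, and Ltf had no count. The part of neutrophils in the values of Clec4e and Clec4d was not tested.

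Clec9a, the receptor by which type 1 conventional dendritic cells sense exposed actin of dead cells, had 42.5, 23.2 and 25.5 CPM in controls and 53.3, 42.6 and 34.3 CPM in MCT samples. The groups overlapped through control sample 1, and the log2 fold change was 0.52 (edgeR, SE 0.25, adjusted p = 0.208). Without control sample 1 it was 0.84 and called (adjusted p = 0.0447). Xcr1, the chemokine receptor of the same cells, was called higher at 2.73-fold (edgeR, adjusted p = 0.0137), and of the 12 dendritic cell markers 3 were higher, 1 lower and 8 not called. Clec4n, the name used for Dectin-2 in mice, had no count. RefSeq lists a pseudogene of Clec6a, the human name of Dectin-2, between Clec4b2 and Clec4d in the rat.

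Clec1b (CLEC-2), the podoplanin receptor of platelets and megakaryocytes, fell 2.27-fold. It had 5.66, 6.48 and 4.80 CPM in controls and 2.37, 3.02 and 2.03 CPM in MCT samples, with no overlap (edgeR, ENSRNOG00000057335, log2 fold change -1.18, SE 0.27, adjusted p = 0.0262). The counts behind it were 85 to 89 per control and 29 to 51 per MCT sample. The call ended without any single library other than MCT sample 2 (adjusted p = 0.0587 to 0.0979). Of 6 tested platelet markers 6 did not pass, and at an unadjusted p under 0.05 1 was higher (Pf4) and 1 lower (Itga2b). The list's sum ranged from 16.1 to 26.8 CPM in controls and from 13.9 to 20.9 CPM in MCT samples. Relative to that sum Clec1b was 27.6 ± 3.01% in control and 14.3 ± 0.373% in MCT lungs (SD, n = 3). Pdpn, which encodes podoplanin, had a log2 fold change of 0.19 (edgeR, adjusted p = 0.656) that was -0.02 without control sample 2 and -0.02 without MCT sample 2.

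Both endothelial members fell. Clec14a, a membrane glycoprotein of vascular endothelium with a part in vessel growth, had the largest fall and the smallest adjusted p of the 27 tested rows. Control samples 1 to 3 had 497, 626 and 605 CPM, and MCT samples 1 to 3 had 102, 155 and 117 CPM. The groups were far apart, with the highest MCT sample at 155 CPM and the lowest control at 497 CPM. The fall was 4.62-fold (edgeR, ENSRNOG00000022697, log2 fold change -2.21, SE 0.19, adjusted p = 0.000743), and the value stayed between -2.40 and -2.08 and called in all 15 alternatives.

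Blood endothelial markers were lower in part beside it: of 10 tested 3 fell (Cdh5, Tek and Erg), 0 rose and 7 did not pass, with a median log2 fold change of -0.41. Their summed level was 3306 to 3773 CPM in controls and 1917 to 3467 CPM in MCT samples. Clec14a relative to this sum was 13.2%, 17.6% and 18.3% in control samples 1 to 3 and 5.30%, 4.48% and 5.05% in MCT samples 1 to 3, so its level was also lower when set against those genes. Only Tek, among the 10, fell by more (5.19-fold).

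Clec1a, found on endothelium and dendritic cells, had 82.2, 65.8 and 71.8 CPM in controls and 36.3, 58.1 and 34.3 CPM in MCT samples. It fell 1.71-fold (edgeR, ENSRNOG00000060460, log2 fold change -0.77, SE 0.21, adjusted p = 0.0427). The call ended without any single library other than MCT sample 2 (adjusted p = 0.086 to 0.131). Relative to the endothelial sum Clec1a was 2.07 ± 0.189% in control and 1.69 ± 0.204% in MCT lungs (SD, n = 3). MCT sample 2 had the highest level of both Clec14a and Clec1a among MCT samples, and also the highest endothelial sum.

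Among the Clec2 genes, several of which encode ligands of NK cell receptors of the Klrb1 family, 1 of 5 tested genes fell, 0 rose and 4 did not pass. Clec2g, which RefSeq also lists as Clr-b, had 1668, 2506 and 1890 CPM in control samples 1 to 3 and 1038, 1220.0 and 1074 CPM in MCT samples 1 to 3. The groups did not overlap, and the control samples were the more spread. It fell 1.82-fold (edgeR, ENSRNOG00000059538, log2 fold change -0.86, SE 0.19, adjusted p = 0.0215). The call ended without control sample 2 (adjusted p = 0.0624), control sample 3 (adjusted p = 0.0659), MCT sample 1 (adjusted p = 0.0624) or MCT sample 3 (adjusted p = 0.0785). Of the Klrb1 receptor genes, the Ensembl row of Klrb1a fell 1.63-fold (edgeR, adjusted p = 0.018) and Klrb1c 2.54-fold (edgeR, adjusted p = 0.0458). The assembled row of Klrb1a, XLOC_019453, did not pass (edgeR, log2 fold change -1.35, adjusted p = 0.056). Klrb1 had no count in any sample, and Klrb1b, also on the list, had no row, so neither could be compared. Of 8 NK cell markers 7 fell. The call of the Ensembl row of Klrb1a ended without control sample 2 or 3 or MCT sample 3 (adjusted p = 0.0686 to 0.0737), and that of Klrb1c without those or MCT sample 1 (adjusted p = 0.123 to 0.157).

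The remaining Clec2 genes were much less abundant. Clec2d2 had 3.20 ± 0.551 CPM in control and 5.19 ± 1.14 CPM in MCT lungs (SD, n = 3), with all MCT samples above the controls and a log2 fold change of 0.69 (edgeR, adjusted p = 0.134). Clec2dl1 had a log2 fold change of -1.03 (edgeR, adjusted p = 0.193) and Clec2e of -0.56 (edgeR, adjusted p = 0.431), on 8 to 54 and 8 to 19 counts per sample. Clec2l varied within groups more than between them, from 20.8 to 42.0 CPM in controls and from 10.7 to 34.2 CPM in MCT samples, and its log2 fold change of -0.39 (edgeR, adjusted p = 0.574) was 0.02 without control sample 2. Clec2d had 0 to 6 counts per sample and was not tested. RefSeq holds several like copies of Clec2d2 and Clec2g that have no row of their own here, so reads of copies may have entered these values.

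**Figure D4:**
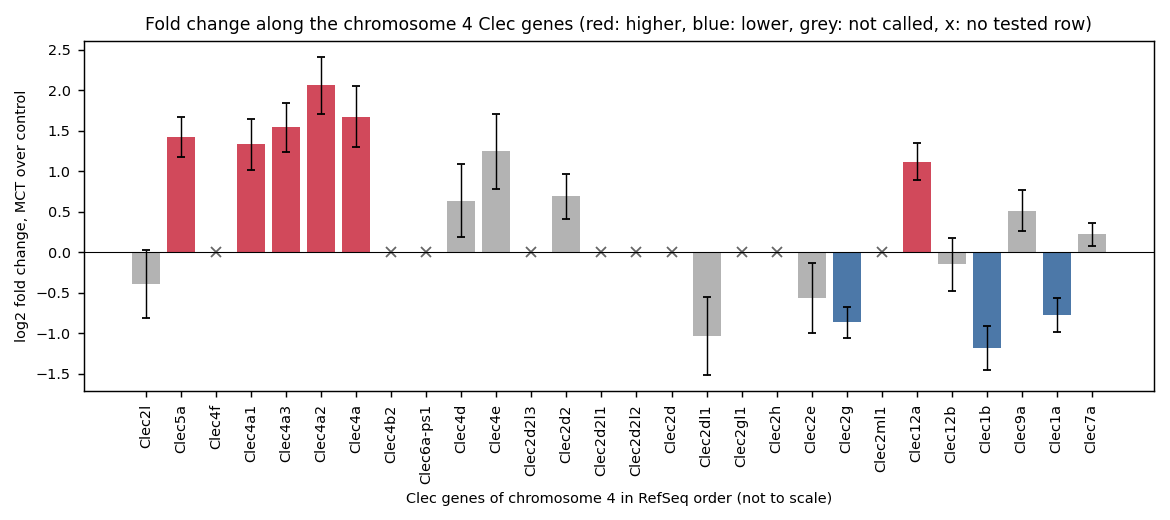
log2 fold change with standard error of the tested Clec rows of chromosome 4, placed in RefSeq gene order and not to scale; crosses mark genes with no tested row. The 4 neighbours Clec4a1, Clec4a3, Clec4a2 and Clec4a all rose, whereas the stretch from Clec12a to Clec7a holds 1 gene that rose, 2 that fell and 3 that did not pass.

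Chromosome 4 holds 28 of the 52 Clec and Cd209 genes that RefSeq names. In the plot of fold changes by gene order, neighbours moved alike in the Clec4a cluster and not alike in the stretch Clec12a, Clec12b, Clec1b, Clec9a, Clec1a and Clec7a. There Clec12a rose, Clec1b and Clec1a fell and the other 3 did not pass.

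Of the secreted members 1 of 3 tested genes rose. Clec3b (tetranectin), a plasminogen-binding protein of plasma and matrix, had 86.8, 109 and 111 CPM in controls and 237, 155 and 171 CPM in MCT samples. It rose 1.83-fold (edgeR, ENSRNOG00000004540, log2 0.87, SE 0.18, adjusted p = 0.0185), with no overlap. The call ended without control sample 1, 2 or 3 (adjusted p = 0.053, 0.0586 and 0.056). Clec11a, a secreted growth factor of bone and blood progenitors, had 2.10 ± 0.472 CPM in control and 4.49 ± 2.16 CPM in MCT lungs (SD, n = 3). Its groups overlapped through MCT sample 2 at 2.07 CPM, and the log2 fold change of 1.08 did not pass (edgeR, adjusted p = 0.129) but was 1.43 and called without that sample (adjusted p = 0.024). Clec18a had a log2 fold change of 0.29 (edgeR, adjusted p = 0.482), and Clec3a had 5 counts over the controls and 0 over the MCT samples. Clec16a, an intracellular protein of mitophagy and no lectin receptor, had 8.34 ± 1.48 CPM in control and 7.33 ± 1.92 CPM in MCT lungs (edgeR, SD, n = 3; log2 fold change -0.19, adjusted p = 0.668).

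The signalling partners rose in part. In a list of 35 genes of the Syk and Card9 route, its adaptors, phosphatases and cytokine outputs, 30 were tested, 7 rose, 1 fell and 22 did not pass, with a median log2 fold change of 0.25. Over all tested genes 8.01% were higher and 5.11% lower, with a median of -0.01. Fcer1g, an adaptor of Mincle and Dectin-2 among other receptors, had 105, 111 and 85.1 CPM in controls and 213, 189.9 and 188 CPM in MCT samples, a rise of 1.96-fold (edgeR, log2 0.97, SE 0.13, adjusted p = 0.00403). Mincle (Clec4e) was not called and Dectin-2 (Clec4n) had no count. Which receptors the rise of Fcer1g went with was not tested. Tyrobp, the adaptor of Clec5a, rose 1.88-fold (edgeR, adjusted p = 0.0115), and Card9 rose 1.85-fold (edgeR, adjusted p = 0.0359). Of the phosphatase genes that inhibitory receptors use, Ptpn6 rose by 1.49-fold (edgeR, adjusted p = 0.0133) and Inpp5d by 1.49-fold (edgeR, adjusted p = 0.0207), and Ptpn11 did not pass (edgeR, log2 fold change 0.01, adjusted p = 0.973). Nlrp3, an inflammasome sensor, rose 2.60-fold (edgeR, adjusted p = 0.00507).

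Plcg2, the phospholipase downstream of Syk, fell 1.65-fold (edgeR, adjusted p = 0.0157). Syk itself had a log2 fold change of 0.47 (edgeR, adjusted p = 0.0965) and Hcst, the second adaptor of Clec5a, of 0.40 (edgeR, adjusted p = 0.293). Of the cytokine outputs Tnf had no count in any sample, and Il6 had 1, 2 and 7 counts in controls and 109, 8 and 27 in MCT samples, which reached the filter's count in too few samples to be tested. The calls of Tyrobp and Ptpn6 ended without control sample 3 (adjusted p = 0.0535 and 0.0671), that of Plcg2 without control sample 3 or MCT sample 3 (adjusted p = 0.0647 and 0.0607), and that of Inpp5d without control sample 2 or 3 or MCT sample 1 (adjusted p = 0.0659 to 0.0877). The call of Card9 ended without any single library (adjusted p = 0.0517 to 0.108). Over the list, 2 genes rose without control sample 3, and 4 rose without control sample 2 or MCT sample 1.

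Other genes with a C-type lectin domain, outside the Clec and Cd209 names, went both ways. Of 31 tested rows in a list of 41 symbols 5 rose, 4 fell and 22 did not pass, with a median log2 fold change of 0.00. The shares over all tested genes were 8.01% higher and 5.11% lower. The genes that rose were Mrc1, the macrophage mannose receptor, by 2.21-fold (edgeR, adjusted p = 0.00721), Mbl1, a mannose-binding lectin of plasma, by 4.88-fold (edgeR, adjusted p = 0.00816), Olr1, a receptor for oxidised lipoprotein, by 2.71-fold (edgeR, adjusted p = 0.0134), Cd72 by 2.40-fold and Asgr2 by 2.83-fold. Those that fell were the lymphocyte receptors Klrd1 by 2.91-fold (edgeR, adjusted p = 0.00768), Klrg1 by 3.53-fold, Klrb1a and Klrb1c. The call of Olr1 ended without control sample 2 or 3 (edgeR, adjusted p = 0.0606 and 0.0516) and that of Cd72 without MCT sample 3 (edgeR, adjusted p = 0.0512). The call of Asgr2 ended without any of 4 libraries (edgeR, adjusted p = 0.0875 to 0.105) and that of Klrg1 without control sample 2 or MCT sample 3 (edgeR, adjusted p = 0.0652 and 0.0591). Over the list, 3 rose without control sample 2 or 3 or MCT sample 3, where 1, 2 and 1 fell. Mrc1 and Klrd1 also stand in marker lists used here. Sftpa1, the lung collectin surfactant protein A and the most abundant of the list, had a log2 fold change of 0.14 (edgeR, adjusted p = 0.686).

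Several cell type marker lists moved beside these genes, among them those of mast cells and basophils, macrophages, NK cells and B cells. Their counts stand beside 8.01% higher and 5.11% lower over all tested genes. Of 8 mast cell and basophil markers 6 rose and 2 fell, with a median log2 fold change of 4.63. The protease genes Cma1 and Cpa3 rose 85.1-fold and 41.4-fold (edgeR, adjusted p = 0.000654 and 0.00112), while Kit and Gata2 fell 1.61-fold and 1.88-fold (edgeR, adjusted p = 0.0319 and 0.0213). The list summed to 399.6 to 495 CPM in controls and to 1582, 626 and 1011 CPM in MCT samples 1 to 3. Most of the control sum came from Kit and Gata2, with control means of 212 and 222 CPM and MCT means of 131 and 118 CPM. The sum therefore understates the rise of the other genes of the list. Of 12 interstitial macrophage markers 10 rose and 1 fell, with a sum of 2268 to 2438 CPM in controls and 3598 to 4602 CPM in MCT samples. Of 8 general macrophage markers 6 rose, but their sum was 29770 to 38930 CPM in controls and 23910 to 33490 CPM in MCT samples, most of it from Lyz2, which did not pass (edgeR, log2 fold change -0.27, adjusted p = 0.538). Of 8 monocyte markers 2 rose, with sums of 408 to 443 CPM in controls and 431 to 637 CPM in MCT samples. Of 8 tested alveolar macrophage markers 2 rose, with sums of 388.2 to 444.6 CPM in controls and 750.5 to 791.6 CPM in MCT samples. These 2 were Fabp4, by 8.30-fold (edgeR, adjusted p = 0.00132), and Mrc1, which also stands in the interstitial list. Marco, a defining marker, had 0 counts in all controls and 0 to 4 in MCT samples. Of 6 general leukocyte genes 3 rose, with sums of 1381 to 1613 CPM in controls and 1794 to 2063 CPM in MCT samples. NK cell markers summed to 126 to 188 CPM in controls and 48.3 to 76.2 CPM in MCT samples, and B cell markers to 70.5 to 160.0 CPM and 27.9 to 44.5 CPM, with 4 of 5 lower. Fibroblast markers rose in 1 of 8 with 1 lower. Of 8 tested neutrophil markers 1 rose, Retnlg, with 5, 5 and 2 counts in controls and 56, 16 and 17 in MCT samples. Retnlg passed the filter through its MCT counts alone, so its call is only a description. Lung epithelial markers were present in all samples, and 6 of 6 did not pass. The part of cell composition in the changes of the lectin genes was not tested.

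**Figure D5:**
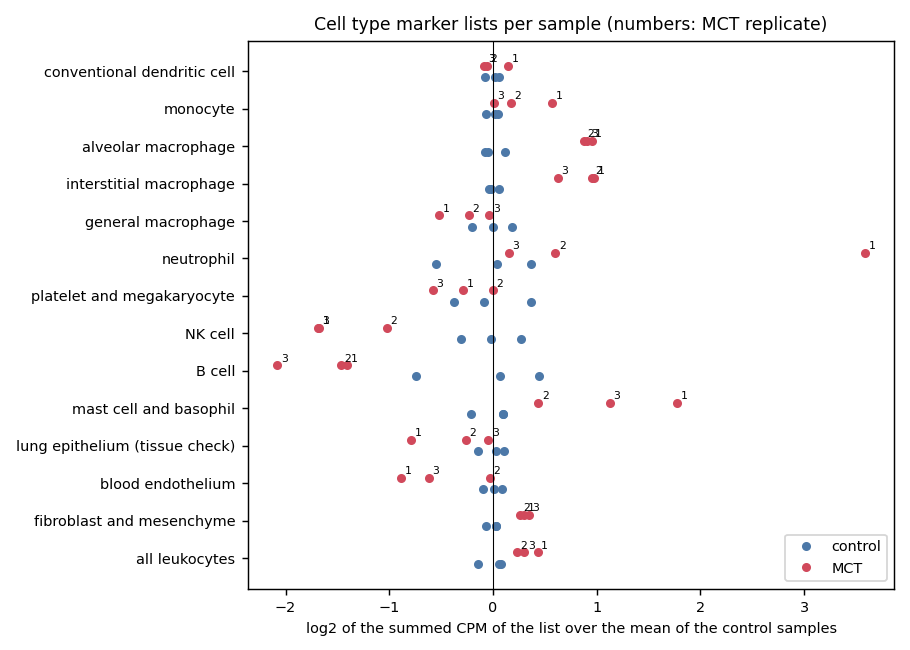
Summed CPM of each marker list per sample, as log2 over the mean of the control samples; numbers give the MCT replicate. Macrophage lists other than the general one lie to the right in all MCT samples, NK and B cell lists to the left, and MCT replicate 1 stands apart in the neutrophil list at 606 CPM.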

How the data were processed

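PolyA RNA of whole lung was sequenced in 6 samples, whose titles give the group and number of each. Per the file headers, the authors deposited estimated counts and FPKM values for every gene. Reads were aligned with Bowtie2 and TopHat2 2.0.3.12 to Rnor_6.0, per the submitters' processing notes; no source used here names the counting tool, the strand handling or the treatment of multiply mapped reads. Without known strand, reads from overlapping antisense genes cannot be told apart. The tests had been planned for raw counts, so the estimated counts were rounded (90.7% to 91.5% of those above 0 were already whole). Summed counts per sample were 13525912 to 17916134, and 0 per-sample columns were left unmapped. Replicate pairs differed by more than sampling noise (chi-square per degree of freedom 22.1 to 49.7).

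The test was edgeR 4.0.16 (R 4.3.3) quasi-likelihood on all genes, with TMM, filterByExpr (minimum count 10, minimum total count 15), no covariates and Benjamini-Hochberg adjustment over 15250 genes. SE is the log2 fold change over the root of the F statistic. Pooled ratios carry exact 95% binomial intervals. The scripts were tested on simulated data. Genes given in full are the called members, the most abundant of each role group, and of each pathway list the 3 with the smallest p, the most abundant and the direct partners; others were named after their values were seen, and 1 list gene is counted but not reported here. The members and lists were chosen with earlier results of these data known. Alternatives were DESeq2 1.42.0, limma-voom (limma 3.58.1), other size factors, 2 count filters, limma on log2(FPKM + 0.1) and log2(FPKM + 1) at a mean FPKM of at least 0.1, a replicate block, each sample left out, and summed rows of a shared symbol. Promoters are RefSeq's (GRCr8), found for 28 of 36 symbols.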

Additional observations from a re-analysis of the deposited data

How the results depend on the processing

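Beside the 2 assembled Cd209a loci, which passed the count filter through the MCT samples alone, 4 of the called members kept their call in every alternative: Clec10a, Clec14a, Clec5a and Clec4a2. The count of members higher in MCT lung, 10, was 5 to 11 with 1 sample left out and 9 to 11 in the other alternatives; the count lower, 4, was 1 to 4 and 3 to 4. Over all tested genes, 1221 higher and 779 lower became 481 to 1394 and 212 to 978 with 1 sample left out, and 1182 were lower with DESeq2. In the Syk and Card9 list, 7 higher and 1 lower became 2 to 8 and 0 to 1, and among the other C-type lectin genes 5 higher and 4 lower became 3 to 5 and 1 to 6, with 7 lower by DESeq2.

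The deviations of same-numbered samples correlated at -0.0781 to -0.0468, so they showed no common shift over the tested genes. These correlations cannot show whether animals or libraries were handled in pairs. With the replicate block 9 members were higher and 3 lower, 917 and 546 genes over all, 6 and 1 in the Syk and Card9 list and 5 and 4 in the other list; the members Clec4a (edgeR, adjusted p = 0.0634) and Clec1a (edgeR, adjusted p = 0.0615) were then not called. Signs turned, with no call at either sign, for Clec2l (0.024, range -0.91 to 0.024 with 1 sample left out) and Clec12b (0.26, range -0.41 to 0.26) without control replicate 2, Clec16a (0.00038, range -0.37 to 0.00038) without MCT replicate 2, and Pdpn (range -0.016 to 0.40) without control replicate 2 (-0.016) or MCT replicate 2 (-0.016). The cause was not tested. The 12 untested members reached the filter's count in too few samples.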
